A study of Mus musculus with 8 samples.

Results

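The integrated stress response and the one-carbon metabolism tied to it were followed through 33 genes in brown adipose tissue of mice with and without Ogt in their brown adipocytes. The members were the rows of the deposited gene table whose symbol was on a list of 33 genes of these systems. Of the table's 54532 rows 34 carried these symbols, because Ddit3 has a second gene model, which was listed at 0 in every library and was left out. RNA sequencing covered 4 samples of the brown adipocyte-specific Ogt knockout (labelled OGTBKO) and 4 wild-type samples (labelled WT). OGT modifies serines and threonines of nuclear and cytosolic proteins with the sugar N-acetylglucosamine. Under the protocol given for both groups, mice lived at 23 °C on standard chow, underwent induction after 8 weeks by an agent that the labels spell gomaxifen, and gave their tissue 2 months later, freed of the white fat around it. For the driver of the deletion, sex and strain, the sources used here hold no entry. The labels number the samples but do not tie each to its own animal, so the spread that p-values rest on is that between these samples, which may be technical.

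When the kinases HRI, PKR, PERK or GCN2 phosphorylate the translation factor eIF2α, most protein synthesis slows while the mRNAs of ATF4 and a few other factors are translated more. ATF4 and its partners then switch on genes of amino acid uptake, amino acid synthesis and tRNA charging, among them the enzymes that make serine and those that pass its carbon through folate in mitochondria. Much of the control of ATF4 lies in translation, which RNA levels do not show. In muscle and fat with damaged mitochondria the response is known to raise the secreted hormones FGF21 and GDF15.

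Between 14409348 and 15897920 reads per OGTBKO library and between 13393962 and 15293657 reads per WT library fell in genes. Levels are FPKM, fragments per kilobase of gene scaled for depth. Ogt itself (ENSMUSG00000034160) measured 10.65, 14.55, 12.77 and 11.77 FPKM in OGTBKO 1 to OGTBKO 4, against 33.1, 24.7, 23.9 and 22.5 FPKM in WT 1 to WT 4, so the libraries matched their labels. The tissue was taken whole although the cell type label reads adipocytes. Of 8 brown adipocyte markers 0 were called higher and 2 lower by limma, and their summed level was 4141 to 4807 FPKM in OGTBKO and 3820 to 5575 FPKM in WT libraries. The sum of 6 skeletal muscle markers, 0 of them called, was 1206 FPKM in OGTBKO 1 and between 0.942 and 5.33 FPKM in the other OGTBKO libraries, against 404 FPKM in WT 1, 31.8 FPKM in WT 4 and 0.383 to 0.946 FPKM in WT 2 and WT 3. Muscle marker RNA was thus highest in both libraries numbered 1, and the members whose call or direction turns on these libraries are given with and without them. WT 3 stood apart in another way, with 39.4% of its reads in genes on mitochondrial genes. That share was 27.2 to 32.2% in the other WT libraries, and its part in the values of WT 3 was not tested. The sum of 7 macrophage markers, of which 0 were called higher and 1 lower (Cd163), was 194 FPKM in OGTBKO 1 and 386 to 498 FPKM in OGTBKO 2 to OGTBKO 4, against 140 to 291 FPKM in WT libraries. Of 5 endothelial markers 1 was called higher and 0 lower, and 0 of 5 fibroblast and 0 of 3 tested Schwann cell markers were called. In whole tissue, fewer cells of a type and less RNA per cell cannot be told apart.

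**Figure D1:**
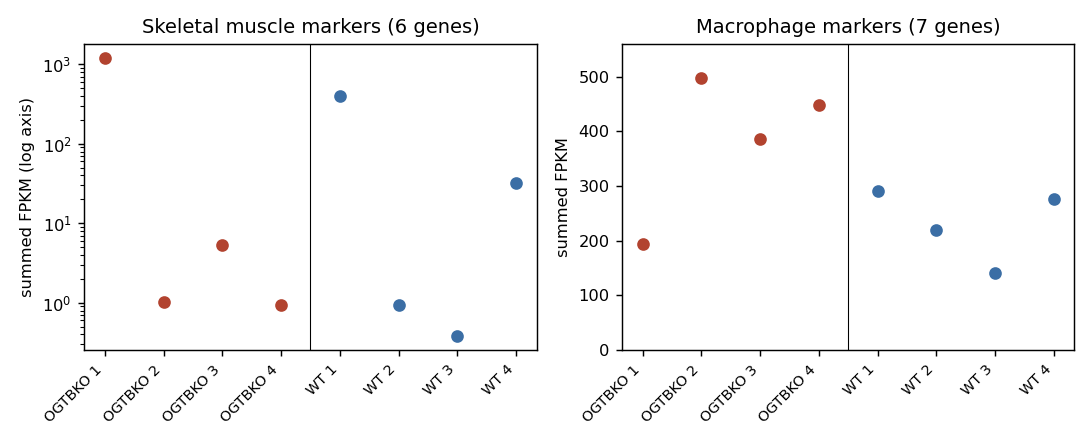
Summed FPKM of 6 skeletal muscle markers (left, log axis) and 7 macrophage markers (right, linear axis) in each library, OGTBKO left of WT, 1 point per library. The muscle sum reached 1206 FPKM in OGTBKO 1 and 404 FPKM in WT 1, and the lowest macrophage sum among OGTBKO libraries, 194 FPKM, was that of OGTBKO 1.

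Of the 33 members, 28 had a mean of at least 0.5 FPKM and were tested, and 5 of these rose: the stress-induced nuclear protein Nupr1, the serine synthesis enzymes Psat1 and Psph, the mitochondrial folate enzyme Mthfd2 and the phosphatase subunit Ppp1r15a (limma on log2(FPKM + 0.5), Benjamini-Hochberg adjusted p under 0.05 over 13171 genes). By limma 0 fell, 23 did not pass, and 5 members were under the limit of 0.5 FPKM and not tested. At an unadjusted p under 0.05, 9 were higher and 3 lower, and limma voom on back-calculated reads called 6 higher and 0 lower. Over all genes tested 15.6% were called, 8.11% higher and 7.46% lower, so the 17.9% of tested members called in either direction were near the background, while all 5 calls were on the higher side. The median log2 change of the tested members was 0.18, against 0.00 for all genes tested, and 17 of the 28 had a positive change. With the library total as denominator these medians were 0.29 and 0.09. In 7 tested members every OGTBKO library was above every WT library, as in 11.1% of all genes tested, and in 1 every OGTBKO library was below, as in 11.4%. By system, 2 of 16 tested members of the stress response rose and 3 of 12 tested members of serine, folate, glycine and proline metabolism. With no filter on low values the calls of Nupr1 and Psph were kept and those of Mthfd2, Psat1 and Ppp1r15a ended (limma adjusted p = 0.0631, 0.0637 and 0.0935). The count of 5 was 1 without OGTBKO 3, 2 without OGTBKO 2, OGTBKO 4 or WT 2, and 3 without WT 4.

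**Figure D2:**
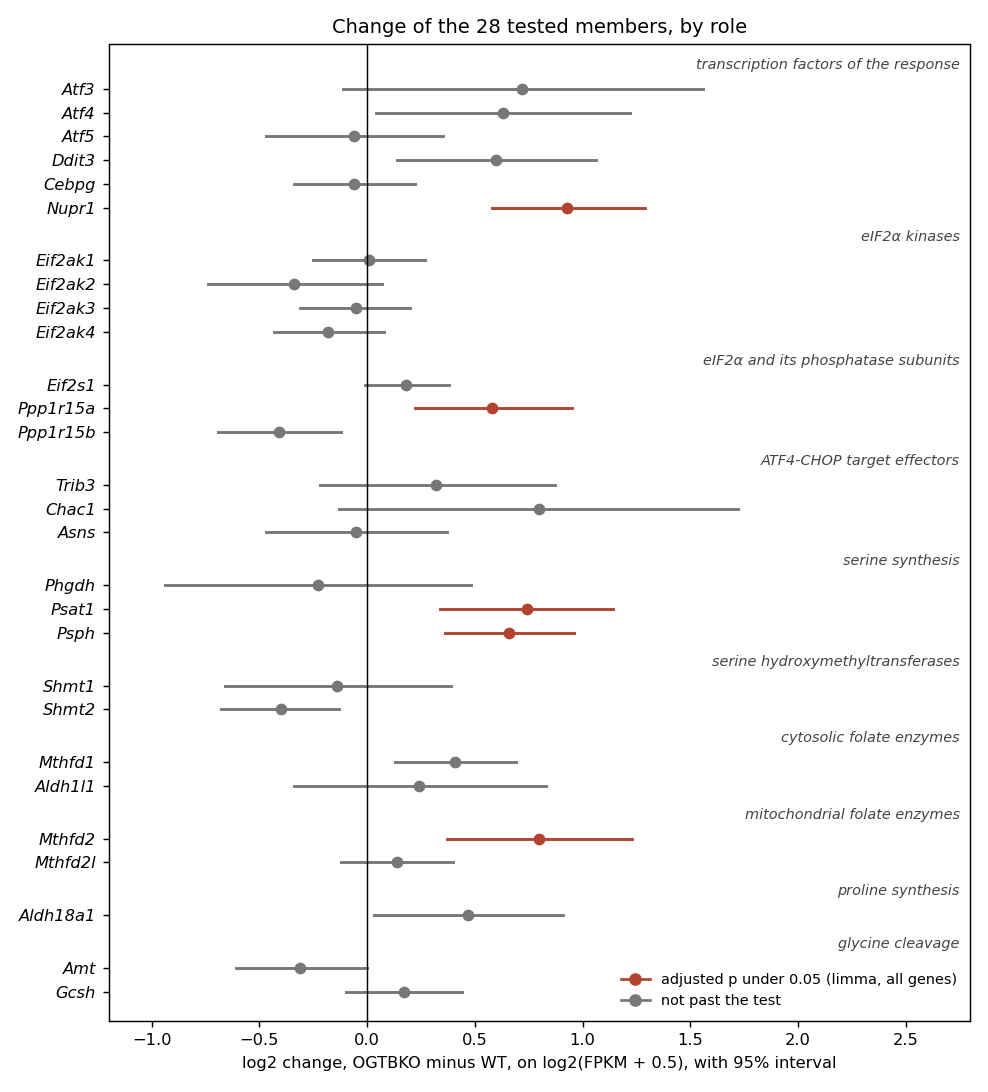
Log2 change (OGTBKO minus WT, on the log2(FPKM + 0.5) scale) of the 28 tested members with its 95% interval from the limma fit, grouped by role; members in red passed adjusted p under 0.05 over all genes and members in grey did not. The 5 red points lie between 0.58 (Ppp1r15a) and 0.93 (Nupr1), and 0 members passed on the other side.

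Of 6 transcription factors of the response 1 rose, 0 fell and 5 did not pass. Nupr1 (ENSMUSG00000030717, chromosome 7, 126623249 to 126630861, minus strand, mm10), a small nuclear protein that several stresses induce, measured 3.513, 3.483, 3.496 and 4.114 FPKM in OGTBKO 1 to OGTBKO 4, against 2.38, 1.195, 1.58 and 1.68 FPKM in WT 1 to WT 4. The OGTBKO libraries all lay above the WT libraries, of which WT 1 was the highest. The means were 3.65 ± 0.309 FPKM in OGTBKO and 1.71 ± 0.495 FPKM in WT tissue (SD, n = 4 each), and the log2 change was 0.93 ± 0.16 (SE; limma adjusted p = 0.00915). The call of Nupr1 held in all 18 alternatives tried, with log2 changes between 0.80 and 1.12.

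Atf4 (ENSMUSG00000042406, chromosome 15, 80255184 to 80257541, plus strand), the central activator of the response, measured 20.2, 26.0, 28.5 and 34.6 FPKM in OGTBKO libraries, against 24.9, 14.5, 10.9 and 22.05 FPKM in WT libraries. The groups overlapped, since WT 1 and WT 4 lay above OGTBKO 1. Its log2 change of 0.63 (95% interval 0.04 to 1.22, limma adjusted p = 0.130) did not pass. Without both libraries numbered 1, a setting added after the data were seen, the change was 0.94 (limma adjusted p = 0.0477). Atf4 passed in this 1 alternative of 18. The change was 0.42 without WT 3 (limma adjusted p = 0.233) and 0.42 with GC and length trends removed (limma adjusted p = 0.308). Over all 18 alternatives the limma adjusted p lay between 0.0477 and 0.341.

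Ddit3 (ENSMUSG00000025408, chromosome 10, 127290774 to 127296288, plus strand) encodes CHOP, a factor that ATF4 induces and that can drive cell death under lasting stress. It measured 5.69, 8.81, 13.05 and 9.435 FPKM in OGTBKO libraries, against 6.06, 5.42, 5.29 and 6.03 FPKM in WT libraries. OGTBKO 2 to OGTBKO 4 lay above every WT library and OGTBKO 1 within their range. The log2 change was 0.60 (95% interval 0.14 to 1.06, limma adjusted p = 0.0775). It passed without OGTBKO 1 (log2 0.80, limma adjusted p = 0.0182), without both libraries numbered 1 (log2 0.83, limma adjusted p = 0.0231) and with array weights, and was 0.42 without OGTBKO 3 (limma adjusted p = 0.168).

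Atf3, an early stress factor of the same bZIP family, measured 1.385, 4.04, 4.98 and 4.70 FPKM in OGTBKO libraries, against 2.01, 1.30, 1.32 and 3.49 FPKM in WT libraries. Again OGTBKO 1 lay within the WT range and the other OGTBKO libraries above it. The log2 change of Atf3 was 0.72 (95% interval -0.11 to 1.56, limma adjusted p = 0.210), 1.08 without OGTBKO 1 (limma adjusted p = 0.0391) and 1.10 without both libraries numbered 1 (limma adjusted p = 0.0547). It was 0.57 without OGTBKO 3 (limma adjusted p = 0.413) and 0.57 with GC and length trends removed (limma adjusted p = 0.341). OGTBKO 1 was also the OGTBKO library with the most muscle marker RNA and the least macrophage marker RNA, and the part of either in these values was not tested.

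Atf5, a related factor linked to the mitochondrial branch of the response, had the highest FPKM of the 6 factors and measured 34.7, 32.4, 50.7 and 36.4 FPKM in OGTBKO libraries, against 48.6, 40.55, 41.85 and 29.9 FPKM in WT libraries. The groups overlapped, with a log2 change of -0.06 (95% interval -0.47 to 0.35, limma adjusted p = 0.849), and 0.08 without both libraries numbered 1. Cebpg, which pairs with ATF4 on DNA, averaged 17.0 ± 0.807 FPKM in OGTBKO and 17.9 ± 2.99 FPKM in WT tissue (SD, n = 4 each) with a log2 change of -0.06 (95% interval -0.34 to 0.22).

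The letters of the ATF4 response element, TGATGNAA, were searched on both strands of the promoters that RefSeq (GRCm38.p6) gave for 31 of the members, from 250 bases before to 50 after each start. They were found in 6 members, or 19.4% of those searched, where 4.51% of all 27025 genes with a promoter and 2.71% of the 9283 tested genes matched by symbol hold them. The 6 were Atf3, Nupr1, Trib3, Chac1, Asns and Pycr1, and Nupr1 was the single one of these called higher. The list of members holds known targets of ATF4, such as Asns and Trib3, so a share above that of all genes was built into it. A match is a description of the letters, and its absence speaks only of this window. For 5 of the members with a match, 48 bases around it are printed 5′ to 3′ on the strand of the gene, to show the letters shared by the called Nupr1 and members that did not pass. Capitals mark the match, which reads TGATGNAA on the gene's own strand and TTNCATCA where it lies on the opposite one. The first base of the match lay 110 bases before the start in Nupr1 (chr7:126625553-126625600, minus strand) and in Atf3 (chr1:191183416-191183463, minus strand). It lay 193 bases before the start in Chac1 (chr2:119351029-119351076, plus strand), 23 in Asns (chr6:7693205-7693252, minus strand) and 103 in Pycr1 (chr11:120643824-120643871, minus strand), and in Trib3 just past the start, at base 15.
Nupr1: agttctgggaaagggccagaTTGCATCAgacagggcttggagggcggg
Atf3: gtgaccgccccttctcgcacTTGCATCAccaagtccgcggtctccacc
Chac1: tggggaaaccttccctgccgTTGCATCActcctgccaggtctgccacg
Asns: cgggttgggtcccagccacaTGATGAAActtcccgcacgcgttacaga
Pycr1: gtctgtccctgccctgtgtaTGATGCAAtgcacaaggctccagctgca
The letters TTGCATCA were thus the same in Nupr1, Atf3 and Chac1. Pycr1 held TGATGCAA, which is the same sequence read on the other strand, while Asns held TGATGAAA.

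**Figure D3:**
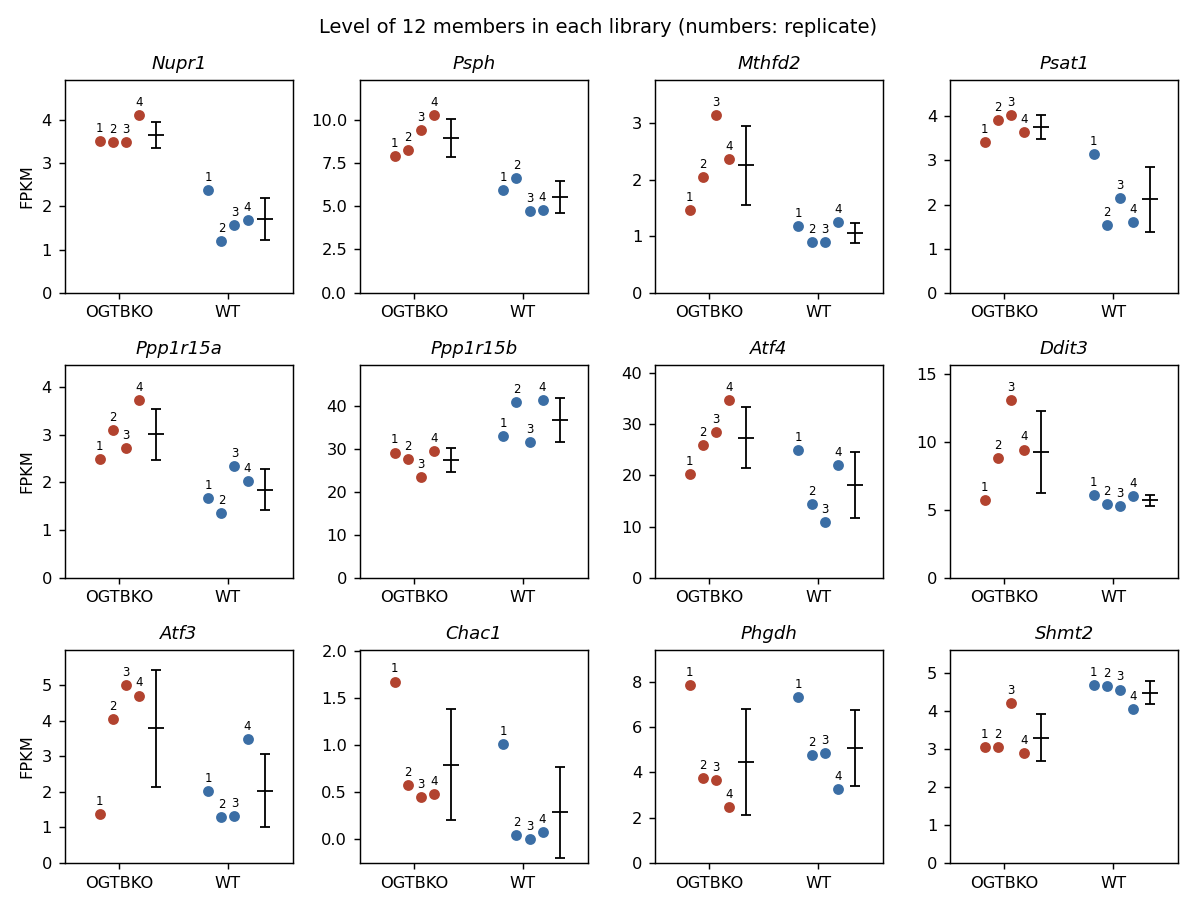
FPKM (linear axes) of 12 members in each library, OGTBKO left of WT, 1 point per library with its replicate number, and the mean with SD (n = 4) beside each group. In Nupr1, Psph, Mthfd2, Psat1 and Ppp1r15a the OGTBKO points all lie above the WT points; in Chac1 and Phgdh the libraries numbered 1 are the highest of both groups.

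Of the 4 kinases that start the response 0 were called by limma, 0 at an unadjusted p under 0.05 and 0 by limma voom. Eif2ak1, which encodes HRI, the kinase of heme shortage and of the mitochondrial relay, averaged 7.50 ± 1.03 FPKM in OGTBKO and 7.41 ± 0.671 FPKM in WT tissue (SD, n = 4 each), with a log2 change of 0.01 (95% interval -0.25 to 0.27), and -0.10 without both libraries numbered 1. Eif2ak3, which encodes PERK, the kinase of the endoplasmic reticulum, had a log2 change of -0.05 (95% interval -0.31 to 0.20). Eif2ak4, which encodes the amino acid sensor GCN2, had one of -0.18 (95% interval -0.43 to 0.08). Eif2ak2, which encodes PKR, the kinase that double-stranded RNA activates, measured 4.54, 5.19, 4.12 and 4.93 FPKM in OGTBKO libraries, against 4.70, 7.17, 8.22 and 4.75 FPKM in WT libraries (log2 -0.34, 95% interval -0.74 to 0.07, limma adjusted p = 0.227). WT 2 and WT 3 stood above all others in Eif2ak2.

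The subunits that direct phosphatase PP1 to eIF2α, and so end the response, differed in direction. Ppp1r15a (ENSMUSG00000040435, chromosome 7, 45522916 to 45526268, minus strand), which encodes the stress-induced subunit GADD34, measured 2.49, 3.09, 2.73 and 3.72 FPKM in OGTBKO libraries, against 1.67, 1.36, 2.35 and 2.02 FPKM in WT libraries. The groups did not overlap, though WT 3 came close to OGTBKO 1, and the gene rose by a log2 of 0.58 ± 0.16 (SE; limma adjusted p = 0.0410). The call of Ppp1r15a ended once trends with GC content and length were removed (log2 0.39, limma adjusted p = 0.168), without both libraries numbered 1 (limma adjusted p = 0.0686) and in 6 of the 8 fits that left out 1 library, those without OGTBKO 1 or WT 3 being the exceptions. Its adjusted p over all 18 alternatives lay between 0.0127 and 0.209.

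Ppp1r15b, which encodes the constitutive subunit CReP, had a much higher FPKM and measured 29.2, 27.7, 23.6 and 29.7 FPKM in OGTBKO libraries, against 33.1, 41.0, 31.6 and 41.4 FPKM in WT libraries. Every OGTBKO library was below every WT library, with a log2 change of -0.41 (95% interval -0.69 to -0.12) that did not pass (limma adjusted p = 0.0585). It passed with array weights (log2 -0.52, limma adjusted p = 0.0120) and without WT 3 (log2 -0.47, limma adjusted p = 0.0392). As a ratio of FPKM, Ppp1r15a stood at 0.0851, 0.111, 0.116 and 0.125 of Ppp1r15b in OGTBKO 1 to OGTBKO 4, against 0.0504, 0.0331, 0.0742 and 0.0488 in WT 1 to WT 4. Every OGTBKO library was above every WT library in this ratio. That follows from the 2 genes, since neither overlapped between groups and they differed in opposite directions, so it adds no further separation. The ratio was picked after its values were seen and was not tested.

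Eif2s1, the gene of eIF2α, averaged 9.74 ± 0.597 FPKM in OGTBKO and 8.51 ± 0.404 FPKM in WT tissue (SD, n = 4 each; log2 0.18, limma adjusted p = 0.175). With the GC and length trend removed Eif2s1 passed (log2 0.36, limma adjusted p = 0.0338). It has the second-lowest GC content of the tested members, at 40.8%.

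Among 3 effectors downstream of ATF4 and CHOP 0 were called by limma, 0 at an unadjusted p under 0.05 and 0 by limma voom. Chac1, which breaks down glutathione, measured 1.67, 0.569, 0.442 and 0.483 FPKM in OGTBKO libraries, against 1.01, 0.0427, 0 and 0.0747 FPKM in WT libraries. These are 45, 15, 13 and 11 reads in OGTBKO libraries, against 23, 1, 0 and 2 reads in WT libraries. The libraries with the most muscle marker RNA, OGTBKO 1 and WT 1, were the highest of their groups, and OGTBKO 2 to OGTBKO 4 all lay above WT 2 to WT 4. Chac1 did not pass with all libraries (log2 0.80, 95% interval -0.13 to 1.72, limma adjusted p = 0.212). It passed without both libraries numbered 1 (log2 0.89, limma adjusted p = 0.0338) and without WT 1 (log2 1.17, limma adjusted p = 0.0458). Both fits kept the filter set on all 8 libraries, over which Chac1 averaged 0.537 FPKM. Over the libraries left in either fit, the mean of Chac1 was under the limit of 0.5 FPKM. The size of its fitted change depends on the pseudocount, at 1.77 with 0.1 FPKM and 0.50 with 1 FPKM.

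Trib3, a pseudokinase that CHOP and ATF4 induce, averaged 1.84 ± 0.534 FPKM in OGTBKO and 1.40 ± 0.619 FPKM in WT tissue (SD, n = 4 each; log2 0.32, 95% interval -0.22 to 0.87). Asns, asparagine synthetase and a textbook ATF4 target, measured 30.7, 24.6, 19.1 and 25.9 FPKM in OGTBKO libraries, against 18.4, 28.2, 28.2 and 29.5 FPKM in WT libraries. WT 1 stood below all others and OGTBKO 1 above them. The log2 change of Asns was -0.05 (95% interval -0.47 to 0.37, limma adjusted p = 0.875), and -0.31 without both libraries numbered 1 (limma adjusted p = 0.151).

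In serine synthesis, a pathway of 3 enzymes, the last 2 rose and the first did not pass. Psat1 (ENSMUSG00000024640, chromosome 19, 15904678 to 15947337, minus strand), phosphoserine aminotransferase, measured 3.42, 3.91, 4.03 and 3.65 FPKM in OGTBKO libraries, against 3.15, 1.54, 2.15 and 1.61 FPKM in WT libraries. The OGTBKO libraries lay close together above the WT libraries, of which WT 1 was the highest. Psat1 rose by a log2 of 0.74 ± 0.18 (SE; limma adjusted p = 0.0276), and by 0.95 without both libraries numbered 1 (limma adjusted p = 0.0122). Its call ended in 5 of the 8 fits that left out 1 library, namely without OGTBKO 2, OGTBKO 3, OGTBKO 4, WT 2 or WT 4, where limma adjusted p lay between 0.0625 and 0.0805.

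Psph (ENSMUSG00000029446, chromosome 5, 129765558 to 129787449, minus strand), the phosphatase that releases serine, measured 7.91, 8.26, 9.39 and 10.27 FPKM in OGTBKO libraries, against 5.93, 6.62, 4.71 and 4.79 FPKM in WT libraries. The groups did not overlap, and the log2 change was 0.66 ± 0.13 (SE; limma adjusted p = 0.0155). The call ended in 1 of the 8 fits that left out 1 library, without OGTBKO 3 (limma adjusted p = 0.0532).

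Phgdh, phosphoglycerate dehydrogenase, which commits carbon to serine, measured 7.84, 3.77, 3.67 and 2.485 FPKM in OGTBKO libraries, against 7.34, 4.78, 4.86 and 3.27 FPKM in WT libraries. The libraries numbered 1, with the most muscle marker RNA, were the highest of both groups, and the remaining values overlapped. The log2 change was -0.23 (95% interval -0.94 to 0.48, limma adjusted p = 0.659), and -0.34 without both libraries numbered 1 (limma adjusted p = 0.280). As a ratio of FPKM, chosen after the values were seen and not tested, Psat1 stood at 0.4365, 1.04, 1.10 and 1.47 times Phgdh in OGTBKO 1 to OGTBKO 4, against 0.430, 0.323, 0.443 and 0.492 times in WT 1 to WT 4. OGTBKO 1 lay within the WT range of this ratio and the other OGTBKO libraries above it.

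Serine hydroxymethyltransferases move the carbon of serine onto folate, and neither of the pair passed. Shmt2, the mitochondrial form, measured 3.04, 3.04, 4.20 and 2.89 FPKM in OGTBKO libraries, against 4.66, 4.65, 4.56 and 4.03 FPKM in WT libraries. OGTBKO 3 reached into the WT range and the other OGTBKO libraries lay below it. The log2 change was -0.40 (95% interval -0.68 to -0.13, limma adjusted p = 0.0539). It passed without OGTBKO 3 (log2 -0.51, limma adjusted p = 0.0331) and with GC and length trends removed (log2 -0.62, limma adjusted p = 0.0183). Shmt1, the cytosolic form, averaged 6.18 ± 0.726 FPKM in OGTBKO and 7.13 ± 2.33 FPKM in WT tissue (SD, n = 4 each; log2 -0.14, 95% interval -0.66 to 0.39), with its lowest value, 3.77 FPKM, in WT 1. Without both libraries numbered 1 the log2 change of Shmt1 was -0.40 (limma adjusted p = 0.0844).

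The mitochondrial enzyme that takes up the carbon unit next was higher. Mthfd2 (ENSMUSG00000005667, chromosome 6, 83305691 to 83325908, minus strand), a dehydrogenase and cyclohydrolase typical of growing cells, measured 1.47, 2.05, 3.14 and 2.37 FPKM in OGTBKO libraries, against 1.18, 0.901, 0.894 and 1.245 FPKM in WT libraries. The groups did not overlap, and OGTBKO 1 was the lowest of its group. Mthfd2 rose to 2.26 ± 0.699 FPKM in OGTBKO, against 1.055 ± 0.184 FPKM in WT tissue (SD, n = 4 each), and the log2 change was 0.80 ± 0.19 (SE; limma adjusted p = 0.0259). The call ended in 4 of the 8 fits that left out 1 library, without OGTBKO 2, OGTBKO 3, OGTBKO 4 or WT 2, where limma adjusted p lay between 0.0528 and 0.0735. As a ratio of FPKM, Mthfd2 stood at 0.483, 0.675, 0.747 and 0.820 times Shmt2 in OGTBKO 1 to OGTBKO 4, against 0.253, 0.194, 0.196 and 0.309 times in WT 1 to WT 4. The groups did not overlap in this ratio, as they did not in Mthfd2 alone. The ratio was picked after its values were seen and not tested.

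The remaining tested folate enzymes did not pass. Mthfd2l, a relative of Mthfd2, averaged 1.68 ± 0.0467 FPKM in OGTBKO and 1.485 ± 0.218 FPKM in WT tissue (SD, n = 4 each; log2 0.14, 95% interval -0.12 to 0.40). Mthfd1, the cytosolic enzyme that joins and interconverts folate units, measured 9.79, 7.045, 7.11 and 7.83 FPKM in OGTBKO libraries, against 5.245, 5.72, 6.70 and 5.645 FPKM in WT libraries. Its groups did not overlap, but the log2 change of 0.41 (95% interval 0.13 to 0.69) missed the threshold (limma adjusted p = 0.0556). Mthfd1 passed with the library total as denominator (limma adjusted p = 0.0330), with array weights (limma adjusted p = 0.0277), by limma voom (adjusted p = 0.0446) and without WT 3 (limma adjusted p = 0.0409). Aldh1l1, which oxidises formyl-folate in the cytosol, measured 23.8 FPKM in OGTBKO 1 and 12.1 to 13.8 FPKM in the other OGTBKO libraries, against 8.23 to 17.4 FPKM in WT libraries, with a log2 change of 0.24 (95% interval -0.34 to 0.83). The change rested on the libraries numbered 1: it was 0.02 without OGTBKO 1, 0.05 without WT 1 and, with its direction turned, -0.17 without both (limma adjusted p = 0.422).

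In proline synthesis and glycine cleavage, 0 of 3 tested members were called by limma or by limma voom, with 1 higher and 1 lower at an unadjusted p under 0.05. Aldh18a1, which makes the precursor of proline, measured 1.496, 1.75, 2.05 and 1.22 FPKM in OGTBKO libraries, against 1.42, 1.115, 0.603 and 1.05 FPKM in WT libraries (log2 0.47, 95% interval 0.03 to 0.91, limma adjusted p = 0.128). In the glycine cleavage system, which turns glycine into a one-carbon unit, Gcsh had the highest FPKM of all members, at 81.95 ± 8.50 FPKM in OGTBKO and 72.8 ± 7.56 FPKM in WT tissue (SD, n = 4 each; log2 0.17, 95% interval -0.10 to 0.44). Amt averaged 1.11 ± 0.202 FPKM in OGTBKO and 1.48 ± 0.158 FPKM in WT tissue (SD, n = 4 each; log2 -0.31, limma adjusted p = 0.148). Gldc, the decarboxylase, was under the limit at 0.218 ± 0.0687 FPKM in OGTBKO and 0.327 ± 0.0842 FPKM in WT tissue (SD, n = 4 each).

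The other members under the limit were Mthfs, Mthfd1l, Aldh1l2 and Pycr1. Mthfd1l, the mitochondrial formate-releasing synthetase, had 11 to 23 reads in OGTBKO and 8 to 21 reads in WT libraries, and Aldh1l2, the mitochondrial counterpart of Aldh1l1, had 3 to 16 reads in OGTBKO and 6 to 17 reads in WT libraries. Pycr1, which completes proline, measured 0.3095, 0.505, 0.3675 and 0.292 FPKM in OGTBKO libraries, against 0.257, 0.266, 0.168 and 0.264 FPKM in WT libraries, with no overlap. Mthfs, which returns a stored folate to use, averaged 0.2575 ± 0.0723 FPKM in OGTBKO and 0.307 ± 0.0987 FPKM in WT tissue (SD, n = 4 each). With no filter on low values none of these 5 genes passed, Gldc included, and the smallest limma adjusted p, that of Pycr1, was 0.323.

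The order of the libraries differed between members. Within the OGTBKO group, Ddit3, Atf3 and Mthfd2 shared 1 order of libraries, lowest in OGTBKO 1, then OGTBKO 2, then OGTBKO 4, and highest in OGTBKO 3. Phgdh, Chac1 and Aldh1l1 instead were highest in OGTBKO 1. Over the 378 pairs of tested members, Pearson's r of the deviations from group means over 8 libraries ran between -0.96 and 0.96 with a median of 0.02. The pair with r = 0.96 was Ddit3 and Mthfd2, and the pair with r = -0.96 was Eif2ak3 and Ppp1r15b. These are descriptions, since all points share the libraries and their depth.

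**Figure D4:**
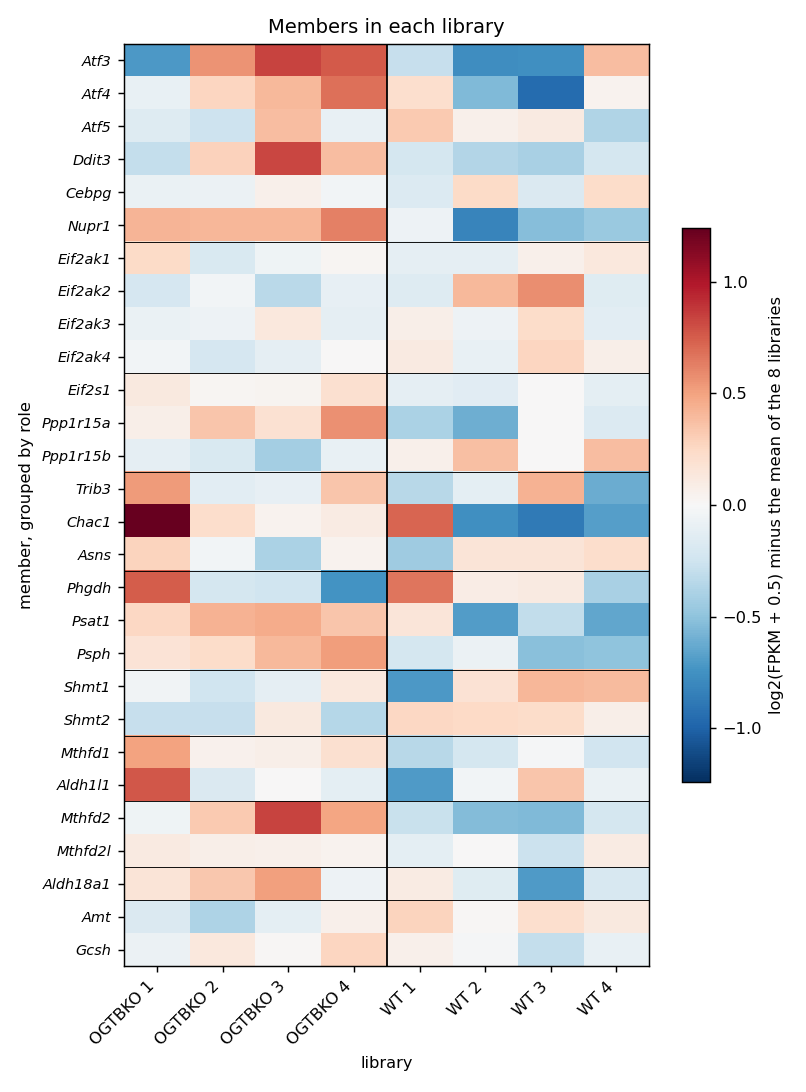
Log2(FPKM + 0.5) of each of the 28 tested members in each library minus the mean of the 8 libraries, OGTBKO left of WT, with lines between roles; red is above and blue below the mean. Nupr1, Psat1 and Psph are red in all 4 OGTBKO libraries, while Chac1 and Phgdh are reddest in OGTBKO 1 and WT 1.

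The base composition of transcripts moved with the direction of change over all genes. With the tested genes split into 4 classes of equal size by GC content, in the lowest class 2.55% were called higher and 17.65% lower, and in the highest 13.9% were called higher and 1.98% lower. By GC content Psat1 (48.4%) lay in the second class, Psph (49.6%), Mthfd2 (49.6%) and Nupr1 (49.9%) in the third and Ppp1r15a (55.7%) in the highest. With the GC and length trend removed, 4 of the 5 calls remained, and that of Ppp1r15a ended.

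Around the members, 101 other genes of these pathways were taken in 9 lists, of which 87 were tested. Of these 10 rose, 8 fell and 69 did not pass, so that 20.7% were called where 15.6% of all genes tested were. Their median log2 change was 0.00. Of ATF4 targets with roles in stress and secretion, 5 of 10 tested rose and 1 fell, with a median of 0.29. Over all genes tested, 8.11% rose and 7.46% fell. The list held 14 genes, of which 4 were under the limit and not tested. Gadd45a, a growth arrest gene, rose to 1.08 ± 0.289 FPKM in OGTBKO, against 0.366 ± 0.0879 FPKM in WT tissue (SD, n = 4 each). The log2 change was 0.86 (limma adjusted p = 0.0186). Gadd45a had 21, 28, 39 and 34 reads in OGTBKO libraries, against 11, 10, 7 and 7 reads in WT libraries. It met the filter only through its OGTBKO values, since every WT library was under 0.5 FPKM. Cebpb, a C/EBP factor that also serves adipocyte differentiation, rose to 113 ± 9.66 FPKM in OGTBKO, against 66.5 ± 19.7 FPKM in WT tissue (SD, n = 4 each; log2 0.82, limma adjusted p = 0.0345). The cysteine-forming enzyme Cth rose by a log2 of 0.65 (limma adjusted p = 0.0344) and the translation inhibitor Eif4ebp1 rose by a log2 of 0.57 (limma adjusted p = 0.0409). Jdp2, a bZIP repressor, rose by a log2 of 0.65 (limma adjusted p = 0.0462), and the lipoprotein receptor Vldlr fell by 0.48 on the log2 scale (limma adjusted p = 0.0438); both complete the calls of the list and were named after their values were seen. The calls of Cth, Eif4ebp1, Jdp2 and Vldlr each held in 1 of the 8 fits that left out 1 library, that of Cebpb in 3 and that of Gadd45a in 6. Those of Cebpb, Eif4ebp1 and Vldlr also ended with the library total as denominator and with GC and length trends removed, the second of which ended that of Jdp2 too.

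The hormones of the response were at the edge of detection. Fgf21 was under the limit of 0.5 FPKM, with 5, 17, 13 and 10 reads in OGTBKO libraries, against 0, 0, 0 and 3 reads in WT libraries. This is 0.320, 1.11, 0.760 and 0.755 FPKM in OGTBKO libraries, all above the highest WT library, WT 4 at 0.193 FPKM. With no filter on low values Fgf21 passed (log2 1.15 on the scale with the pseudocount, limma adjusted p = 0.0288). Gdf15 had 7, 20, 35 and 11 reads in OGTBKO libraries, against 3, 5, 2 and 15 reads in WT libraries. Its groups overlapped, and it did not pass in that setting (log2 0.57, limma adjusted p = 0.277). Both genes were named after their values were seen.

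Genes of translation initiation and tRNA charging were mixed. The exchange factor of eIF2 is eIF2B, the enzyme that phosphorylated eIF2α blocks. Of 8 other genes listed with these factors, 2 rose and 0 fell by limma (0 lower at an unadjusted p under 0.05 and 0 by limma voom). The list holds Eif2a, whose product is a subunit of neither factor, and Eif2a did not pass. Eif2b1 measured 15.3, 15.6, 16.4 and 18.3 FPKM in OGTBKO libraries, against 10.3, 9.28, 8.78 and 10.2 FPKM in WT libraries. The groups lay well apart, and the log2 change was 0.74 ± 0.10 (SE; limma adjusted p = 0.00403), and the call held in all 18 alternatives. Eif2b3 rose by a log2 of 0.58 (limma adjusted p = 0.0202), a call that held in 5 of the 8 fits that left out 1 library. Of 13 genes of cytosolic tRNA charging and export, 1 rose and 1 fell. The glycyl-tRNA synthetase Gars rose to 64.05 ± 4.59 FPKM in OGTBKO, against 41.1 ± 6.23 FPKM in WT tissue (SD, n = 4 each; log2 0.64, limma adjusted p = 0.0131), and the tRNA exporter Xpot fell, with a log2 change of -0.58 (limma adjusted p = 0.00739). Of 4 tested amino acid transporters 0 rose by limma (1 at an unadjusted p under 0.05, 1 by limma voom) and Slc38a2 fell to 10.2 ± 0.833 FPKM in OGTBKO, against 16.7 ± 3.56 FPKM in WT tissue (SD, n = 4 each; log2 -0.66, limma adjusted p = 0.0215). The calls of Slc38a2 and Xpot ended with the library total as denominator, under which the median of all genes moved to 0.09. That of Slc38a2 also ended with GC and length trends removed, without OGTBKO 3 and without WT 2, while those of Gars and Xpot held in all 8 fits that left out 1 library.

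**Figure D5:**
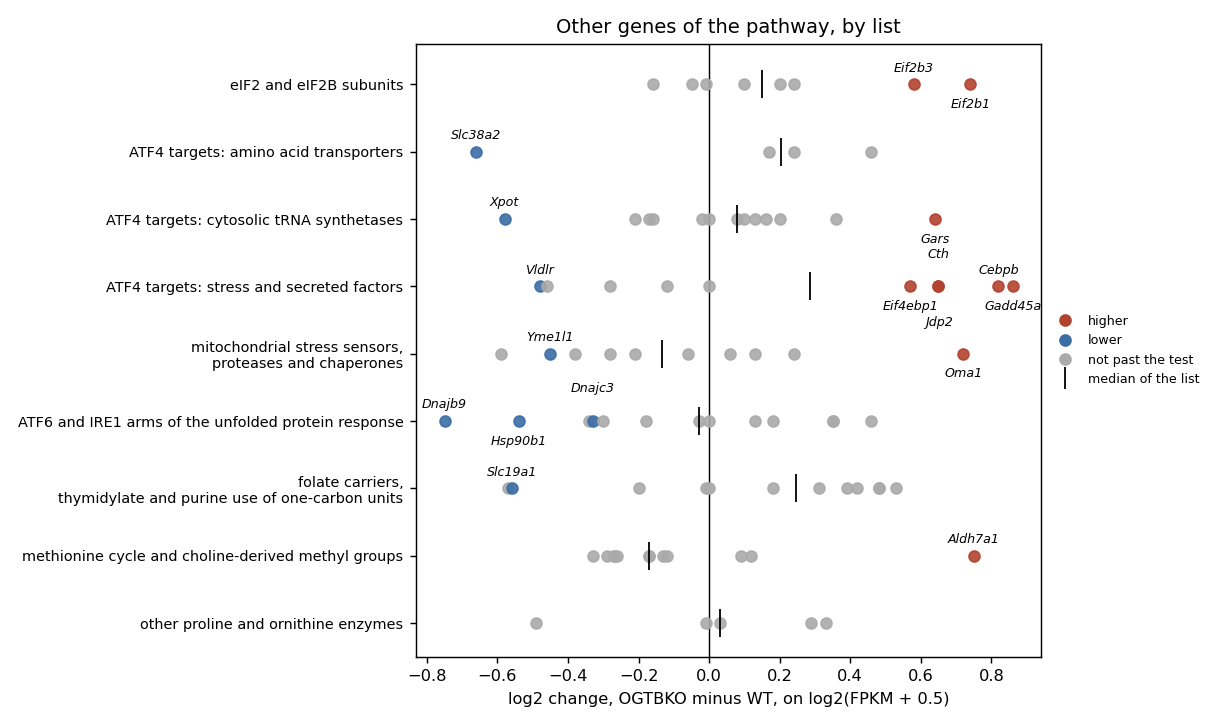
Log2 change (OGTBKO minus WT, on the log2(FPKM + 0.5) scale) of the 87 tested genes in 9 lists of the same pathways, 1 point per gene, with those past adjusted p under 0.05 in red (higher) or blue (lower) and named, and the median of each list as a bar. Among ATF4 targets of stress and secretion 5 of 10 points are red. In the ATF6 and IRE1 arms 3 of 13 are blue and 0 red, and with the library total as denominator 0 of the blue points passed. Over all genes tested, 8.11% were called higher and 7.46% lower.

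The other arms of the unfolded protein response, led by ATF6 and IRE1, had 3 genes that fell and 0 that rose of 13 tested by limma (1 higher at an unadjusted p under 0.05, 0 by limma voom). Over all genes tested, 7.46% fell and 8.11% rose. The chaperone Hsp90b1 fell to 26.3 ± 0.776 FPKM in OGTBKO, against 38.6 ± 4.17 FPKM in WT tissue (SD, n = 4 each; log2 -0.54, limma adjusted p = 0.0115), and the co-chaperones Dnajb9 (log2 -0.75, limma adjusted p = 0.0280) and Dnajc3 (log2 -0.33, limma adjusted p = 0.0445) fell as well. All 3 lay in the lowest class of GC content, in which 17.65% of all genes tested were called lower. With the library total as denominator none of the 3 passed. Of the 8 fits that left out 1 library, the call of Hsp90b1 held in all, that of Dnajb9 in 4 and that of Dnajc3 in 1; the call of Dnajb9 also ended without both libraries numbered 1, and that of Dnajc3 with GC and length trends removed. Hspa5, which encodes BiP, the main chaperone of the endoplasmic reticulum, had a log2 change of -0.30 and did not pass (limma adjusted p = 0.0629).

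Of 10 genes of mitochondrial stress relay and protein upkeep, 1 rose and 1 fell. Oma1, the protease that cleaves DELE1 to engage HRI, measured 6.08, 5.18, 5.86 and 6.499 FPKM in OGTBKO libraries, against 2.62, 3.45, 3.965 and 3.62 FPKM in WT libraries. The groups did not overlap, and the log2 change was 0.72 ± 0.13 (SE; limma adjusted p = 0.0103), and the call held in all 8 fits that left out 1 library. Yme1l1, a protease of the inner membrane, fell by 0.45 on the log2 scale (limma adjusted p = 0.0368), a call that ended with the GC and length trend removed, with the library total as denominator and in 7 of the 8 fits that left out 1 library, the fit without WT 4 being the exception. Dele1 itself averaged 12.3 ± 2.39 FPKM in OGTBKO and 14.3 ± 2.22 FPKM in WT tissue (SD, n = 4 each; log2 -0.21, limma adjusted p = 0.381).

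Among genes that carry and use one-carbon units few were called. Of 12 tested folate carriers and users, 0 rose by limma (3 at an unadjusted p under 0.05, 1 by limma voom) and the reduced folate carrier Slc19a1 fell to 5.62 ± 0.476 FPKM in OGTBKO, against 8.60 ± 1.35 FPKM in WT tissue (SD, n = 4 each; log2 -0.56, limma adjusted p = 0.0198), a call that ended with the library total as denominator, without OGTBKO 2 and without OGTBKO 3. Of 12 tested genes of the methionine cycle and choline-derived methyl groups, Aldh7a1, which oxidises betaine aldehyde, rose to 9.68 ± 0.844 FPKM in OGTBKO, against 5.64 ± 1.29 FPKM in WT tissue (SD, n = 4 each; log2 0.75, limma adjusted p = 0.0169), and 0 fell by limma (2 at an unadjusted p under 0.05, 0 by limma voom). The call of Aldh7a1 ended without OGTBKO 3, OGTBKO 4 or WT 2. Of 5 other proline and ornithine enzymes 0 were called by limma (1 higher at an unadjusted p under 0.05, 0 by limma voom).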

How the data were processed

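Brown adipose tissue was dissected and the library kit was NEBNext Ultra RNA, per the labels' protocols. HISAT2 2.0.5, featureCounts 1.5.0-p3 and build mm10 are named in the submitters' processing notes; strand use in counting is not given in the sources used here. The authors deposited FPKM values of 54532 gene models in 8 libraries, with gene lengths. Each value times its deposited length was a whole multiple of 1 read in 100% of values (tolerance 0.01 read), which gave back the reads per gene. Depth denominators behind the deposited FPKM came to 0.790 to 1.13 times the library's own reads in genes, so the values were already scaled between libraries. In a gene of 1 kb, 1 read was worth 0.0556 to 0.0945 FPKM.

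The comparison of OGTBKO with WT used limma 3.58.1 under R 4.3.3 (eBayes with trend, two-sided, no covariate) on log2(FPKM + 0.5) for the 13171 genes with a mean of at least 0.5 FPKM, with Benjamini-Hochberg adjustment over all of them; changes on this scale understate those of low genes. Ogt was also compared by an exact two-sided permutation test over 70 assignments (p = 0.0286, the smallest these can give; limma adjusted p = 0.00511). GC content came from GENCODE M21 for 99.9% of tested genes. The fit was also run on simulated reads with known fold changes, drawn independently for each gene and library. That run does not speak to GC trends or muscle RNA that many genes share. Pairs of libraries within a group gave a chi-square of 16.0 to 99.6 per degree of freedom, so each was counted as 1 sample.

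The 33 members and the lists of other genes were chosen with earlier results of these data known. From each list the called genes were named, at most 4 with the smallest p. Alternatives were 2 other pseudocounts (0.1 and 1 FPKM), no filter, array weights, the library total as denominator, removal of each library's GC and length trend, the replicate number as a block, and leaving out each library. Limma voom on the reads and leaving out both libraries numbered 1 were chosen after the data were seen.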

Additional observations from a re-analysis of the deposited data

Results flagged for a closer look

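A library was taken to stand apart in its group of 4 where its gap to the nearest other took up more of the group's range than Dixon's limit allows. Of 104 groups checked, 10 had such a library. The limit is set to be passed by about 1 in 20 groups of independent, normally distributed values. The groups here share the same libraries and some lie near 0 FPKM, so that rate need not hold for them. Among the stress genes, Nupr1 measured 4.11 FPKM in OGTBKO 4, against 3.48 to 3.51 FPKM in the other OGTBKO libraries. Chac1 measured 1.67 FPKM in OGTBKO 1, against 0.442 to 0.569 FPKM in the other OGTBKO libraries, and 1.01 FPKM in WT 1, where the other WT libraries had 0 to 0.0747 FPKM, and these are the libraries with the most muscle marker RNA. Asns was low in WT 1 at 18.4 FPKM, where the other WT libraries had 28.2 to 29.5 FPKM, and the co-chaperone Dnajc3 was low there too at 17.95 FPKM, below the 21.2 to 21.8 FPKM of WT 2 to WT 4. Of the one-carbon genes, Shmt2 measured 4.20 FPKM in OGTBKO 3, against 2.89 to 3.04 FPKM in the other OGTBKO libraries, and 4.03 FPKM in WT 4, below the 4.56 to 4.66 FPKM of WT 1 to WT 3. Aldh1l1 measured 23.8 FPKM in OGTBKO 1, against 12.1 to 13.8 FPKM in the other OGTBKO libraries. Aldh7a1 measured 10.9 FPKM in OGTBKO 4, against 9.11 to 9.35 FPKM in the other OGTBKO libraries. Pycr1 measured 0.168 FPKM in WT 3, below the 0.257 to 0.266 FPKM of WT 1, WT 2 and WT 4.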

How the results depend on the processing

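Members called higher numbered 5, as with either other pseudocount. With the GC and length trend removed they were 5 as well, with Eif2s1 in place of Ppp1r15a. They were 2 with no filter on low values, 7 with array weights, 6 with the library total as denominator or by limma voom, 7 without both libraries numbered 1, and 1 to 7 without any single library. Members called lower numbered 0, but 1 with array weights (Ppp1r15b), 1 with the trend removed (Shmt2) and 0 to 1 without any single library (Shmt2 without OGTBKO 3, Ppp1r15b without WT 3). Genes called over the transcriptome numbered 2050, against 1229 with no filter, 3516 with array weights, 1229 with the library total and 694 (without OGTBKO 3) to 2115 (without WT 3) without any single library, with 1173 without OGTBKO 2, 957 without OGTBKO 4, 771 without WT 2 and 1188 without WT 4. Genes of the other lists called higher numbered 10, against 6 with no filter and 3 to 10 without any single library. Those called lower numbered 8, against 4 with no filter, 14 with array weights, 0 with the library total, 4 with the trend removed and 2 to 9 without any single library. The lowest count of higher calls came without OGTBKO 3 or OGTBKO 4, and that of lower calls without OGTBKO 3. The cause of these moves was not tested. Among the members, Nupr1 was the single one called in all 18 alternatives.

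The labels do not say that a replicate number pairs samples. Deviations of same-numbered libraries correlated at 0.22, 0.17, 0.01 and -0.01, against -0.17 to 0.12 between libraries of unlike number. The libraries numbered 1 and those numbered 2 thus had the highest correlations. These values cannot settle whether the numbers pair samples. With the replicate block, 888 genes were called, with 1 member higher (Nupr1), 0 lower, and 4 list genes higher and 5 lower. With the block and the GC and length trend removed, 525 genes were called, with 1 member higher (Nupr1), 1 lower (Shmt2), and 2 list genes higher and 2 lower. The planned edgeR and DESeq2 alternatives were not run, and limma voom on the back-calculated reads was added in their place. Chac1, Gadd45a, Fgf21 and the members under 0.5 FPKM rest on few reads.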
